A study of Mus musculus with 2 samples.

Results

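The transcripts of the mitochondrial genome are the RNAs made from the small circular chromosome inside mitochondria, listed as chromosome M in the deposited table. All rows on that chromosome were taken, which gave 37 of 48526 genes: 13 coding genes, 2 ribosomal RNA genes and 22 transfer RNA genes. They were compared between liver tumor RNA of male WT mice and male *Fabp4*-/- mice, both on the C57BL/6N background, with 1 library per genotype. *Fabp4* encodes the fatty acid carrier protein found mainly in adipocytes and macrophages. At the age of 14 days the mice of both groups were injected with 25 mg/kg N-nitrosodiethylamine (DEN), a chemical that causes liver tumors, and from the age of 6 weeks both ate a high-fat diet (HFD) for 29 weeks. The sources used here do not say how many mice or tumor nodules went into a library, and effects of genotype, animal and handling cannot be told apart. Without replicates no p-value was computed, and every difference given here is one between these libraries. Levels are given in TPM, which corrects for transcript length and library total. The targeted gene *Fabp4* was at 44.1 TPM in WT, from 1786 read pairs, and 0.03 TPM in *Fabp4*-/-, from 1.

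Mitochondrial DNA encodes core subunits of the respiratory chain and of the ATP synthase, together with the ribosomal and transfer RNAs that translate them inside the organelle. Mammalian mitochondria transcribe both strands into long precursors, which are cut mainly at the transfer RNAs between the other genes, and most of the messenger RNAs then receive a polyA tail. All other subunits, and every protein that copies, transcribes or processes mitochondrial nucleic acids, come from nuclear genes. Hepatocytes are rich in mitochondria, and these transcripts are among the most abundant of a liver library.

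Before levels are given, the sequences of the genes matter for what a read can show, because the mouse nuclear genome carries inserted copies of mitochondrial DNA. A comparison of the GENCODE M21 transcripts of the members with all other transcripts found 15 nuclear genes of the table that matched over at least 100 bases at 90% identity or more, and 10 of them were listed at 1 TPM or more. Of the 10, 7 lie side by side on the minus strand of chromosome 1 of GRCm38, the assembly also called mm10 (chr1:24611535-24616197), and 3 on chromosome 2 (chr2:22587291-22590533). Of the 7 chromosome 1 copies, 5 matched their mitochondrial gene without any mismatch. The first 80 bases of *mt-Atp6*, which encodes a subunit of the ATP synthase (chrM:7927-8006), and of its copy *Gm10925* (chr1:24614572-24614651) are shown because they are the same, and the capitals mark the 43 bases that *mt-Atp6* also shares with the end of the neighbouring gene *mt-Atp8*:
mt-Atp6: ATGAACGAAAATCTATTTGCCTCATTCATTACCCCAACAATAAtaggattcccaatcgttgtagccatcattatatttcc
Gm10925: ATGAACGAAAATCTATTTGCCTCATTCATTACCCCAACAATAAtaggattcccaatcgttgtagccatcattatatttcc

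The other pair of chromosome 1 copies differed from their gene at a single base of the aligned stretch. Positions are counted from 1 at the 5′ end of the mitochondrial gene. The copy of *mt-Nd3*, a complex I gene, carries T3C over 345 aligned bases, and the copy of *mt-Co1*, the catalytic subunit of cytochrome c oxidase, carries A1066T over 483 aligned bases. The stretches around these bases, with the differing base in capitals, are shown because the rest of each aligned stretch is shared letter by letter (chrM:9459-9491 beside chr1:24613087-24613119, and chrM:6390-6423 beside chr1:24616155-24616188):
mt-Nd3: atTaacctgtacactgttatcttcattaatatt
Gm28438: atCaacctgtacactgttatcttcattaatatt
mt-Co1: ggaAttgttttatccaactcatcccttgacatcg
Gm29216: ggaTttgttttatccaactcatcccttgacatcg

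The submitters' processing notes name RSEM, which divides reads that match several transcripts by estimate, and most read pairs of 4 members stood under the nuclear copy. Read pairs were estimated from the deposited normalised counts (RSEM counts divided by 1 size factor per library). For *mt-Nd3* the copy *Gm28438* took 82.1% of the pairs of gene and copy in WT and 81.9% in *Fabp4*-/-. For *mt-Atp6* the copy *Gm10925* took 79.96% and 81.8%. *Gm28437*, the copy of the cytochrome c oxidase gene *mt-Co3*, took 74.4% and 74.0%. *Gm28661*, the copy of *mt-Co2*, took 69.4% and 70.6%. The division was thus much the same in both libraries for these members. For *mt-Nd4l*, a complex I gene, the copy *Gm10222* took 37.5% in WT and 30.4% in *Fabp4*-/-. *Gm29216*, which matches the last part of *mt-Co1*, took 5.84% in WT and 8.41% in *Fabp4*-/-. *Gm28439*, the copy of the first part of *mt-Nd4*, took 0.40% and 0.33%, although it matches over 876 bases without a mismatch. The 3 chromosome 2 copies, *Gm13339*, *Gm13340* and *Gm13341*, took at most 0.43% of the pairs shared with *mt-Nd2*, *mt-Co1* and *mt-Co2*. A value listed for one of these 8 genes is therefore the outcome of that division, and sums of gene and copies are given beside it.

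**Figure D1:**
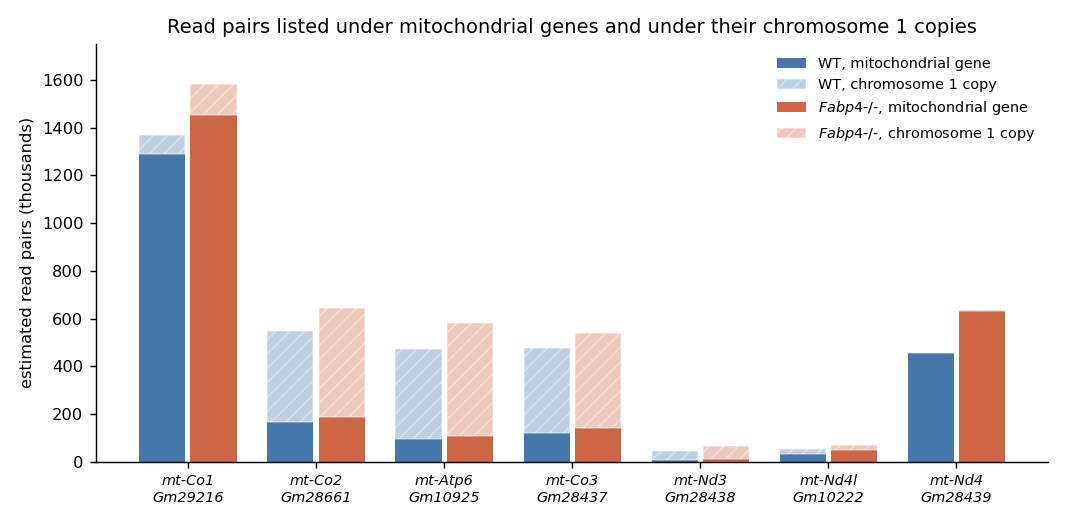
Estimated read pairs (linear axis from 0) listed under the 7 mitochondrial genes with a copy on chromosome 1 (solid) and under that copy (hatched), for WT and *Fabp4*-/-. For *mt-Co2*, *mt-Atp6*, *mt-Co3* and *mt-Nd3* the hatched part is the larger one in both libraries, between 69.4% and 82.1% of the pairs.

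Of the 15 members that reached 1 TPM, 6 had a whole number of read pairs in both libraries after the estimates were rounded: both ribosomal RNA genes, *mt-Nd1*, *mt-Atp8*, *mt-Nd6* and *mt-Cytb*. None of these 6 has a nuclear copy listed at 1 TPM or more. No divided read pair was thus seen between them and another gene, though a fraction lost in the rounding would be missed.

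The mitochondrial genome made up 13.03% of all TPM for WT and 13.53% for *Fabp4*-/-. In read pairs it was 7.19% in WT (95% exact binomial CI 7.18% to 7.20%) and 8.22% in *Fabp4*-/- (8.21% to 8.23%), of 56353665 and 59600850 pairs in all. These intervals cover counting error only and take amplified copies of a molecule as separate. With the 10 nuclear copies counted in, the share was 9.42% of pairs in WT and 10.8% in *Fabp4*-/-. The copies made up 23.7% and 23.9% of that sum. The share was thus higher in *Fabp4*-/- by each of these measures, by little in TPM and by more in read pairs. In bulk tumor RNA, fewer cells of a type and less RNA per cell cannot be told apart.

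The levels of single members can be compared only per length, and the length that TPM uses departs from the annotated one for short genes. Over the 8 members of at least 900 bases, read pairs per TPM followed a line in annotated length minus 192.2 bases in WT and minus 190.4 bases in *Fabp4*-/-. *mt-Atp8*, a small ATP synthase subunit of 204 bases, was accordingly divided by an implied length of only 40.1 bases in WT and 41.0 bases in *Fabp4*-/-. It had the highest TPM of all members, 36087 in WT and 34991 in *Fabp4*-/-, above *mt-Co1* at 20495 and 20052. In read pairs per kb of annotated length *mt-Atp8* was at 329559 and 375461, far under *mt-Co1* at 834225 and 939195. The leading place of *mt-Atp8* thus rests on the short implied length.

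Per annotated kb and with copies counted in, the cytochrome c oxidase and *mt-Atp6* messages led in both libraries. *mt-Co1* was at 887429 read pairs per kb in WT and 1027091 in *Fabp4*-/-, followed by *mt-Co2* at 798835 and 941148. *mt-Atp6* came next at 696490 and 853050, then *mt-Co3* at 607418 and 687168. *mt-Nd1*, *mt-Cytb*, *mt-Nd4*, *mt-Atp8* and *mt-Nd2* lay between 287993 and 446013 in WT and between 375461 and 537531 in *Fabp4*-/-. *mt-Nd4l* stood at 182774 and 233788, and *mt-Nd3* at 133655 and 188420. This order of the short genes rests on the annotated length. By TPM with copies *mt-Atp8* led at 36087 and 34991, and *mt-Nd4l*, at 10344 and 11358, stood above *mt-Nd4* at 8303 and 10010. Which length ranks short genes better was not tested. Lowest of the coding genes were *mt-Nd5* at 111297 and 136585, and *mt-Nd6* at 32726 and 35079. *mt-Nd6* is the only coding gene read from the light strand. The rank correlation of TPM over the 13 coding genes between the libraries was 0.989, as a description only, since these genes share precursors and libraries.

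**Figure D2:**
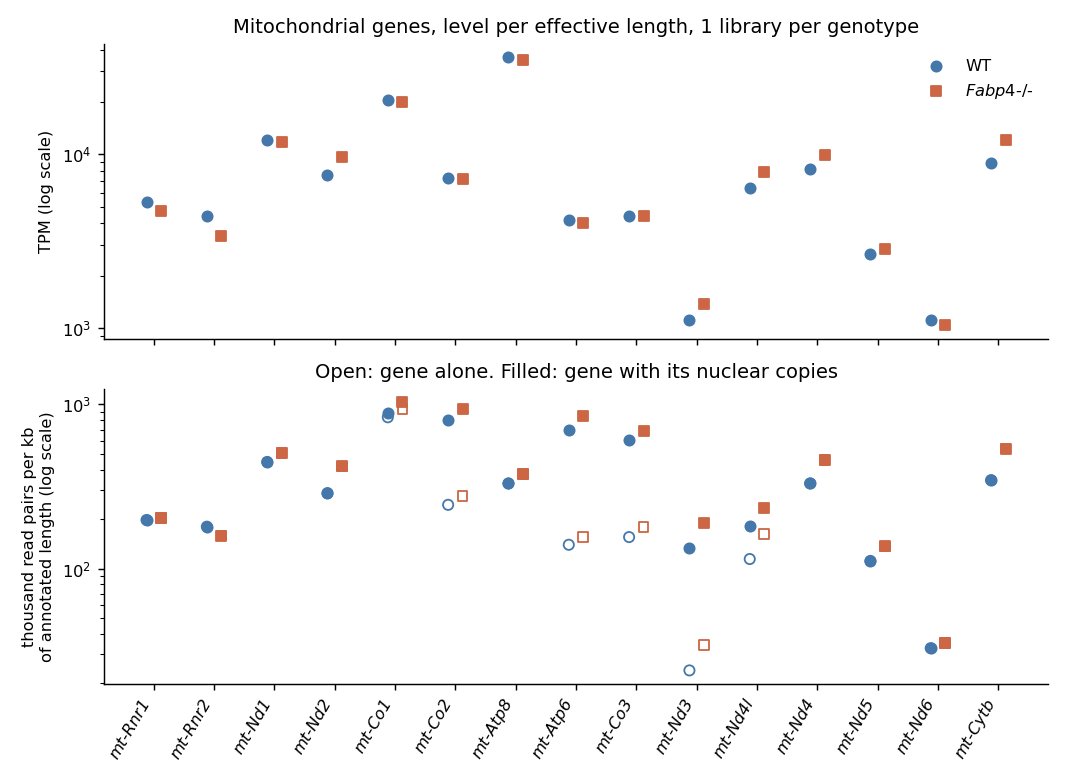
Level of the 15 measured mitochondrial genes in WT (circles) and *Fabp4*-/- (squares), in genome order and on log axes: TPM above, read pairs per kb of annotated length below. In the lower panel open symbols are the gene alone and filled symbols the gene with its nuclear copies. *mt-Atp8* is highest in TPM and below *mt-Co1* per annotated kb, and the open symbols of *mt-Co2*, *mt-Atp6*, *mt-Co3* and *mt-Nd3* lie well below the filled ones.

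Differences are given as the log2 ratio of *Fabp4*-/- over WT, by TPM with 0.5 added to each value and by normalised counts, for genes that reached 1 TPM in at least 1 library. The scales differ: the median of the 13557 genes tested was −0.46 by TPM and 0.04 by normalised counts, so the place of a member relative to that median is given too. No coding member was at least 2-fold higher or lower by TPM (0 and 0 of 13), where the shares of all tested genes past 2-fold were 2.18% in the higher and 14.2% in the lower direction. By normalised counts 1 of 13 was at least 2-fold higher and 0 were at least 2-fold lower, against 5.76% and 7.6% of all tested genes. In numbers, 296 tested genes were past 2-fold higher and 1928 lower by TPM, 781 and 1030 by normalised counts, and 625 and 670 after the median ratio by TPM was set to 0. The median of the 13 coding genes was −0.0035 by TPM and 0.57 by normalised counts. By TPM 6 lay above 0 and 7 below it, whereas by normalised counts all 13 lay above 0, so the sign of a coding gene's ratio turns with the scale for 7 of them. On either scale all 13 lay above the median of all tested genes.

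**Figure D3:**
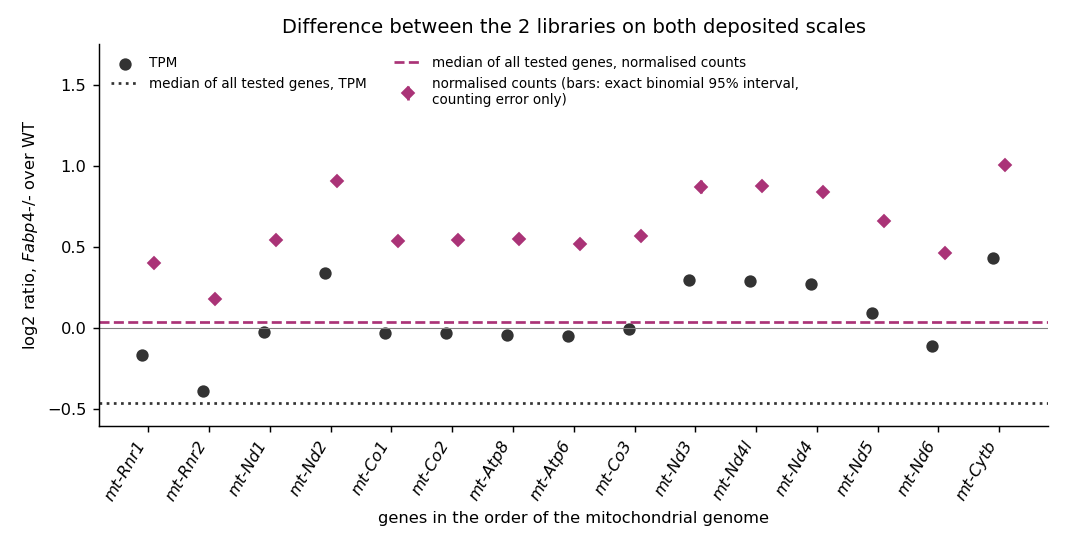
Log2 ratio of *Fabp4*-/- over WT for the 15 measured mitochondrial genes in genome order, by TPM (circles) and by normalised counts (diamonds; the exact binomial 95% intervals are smaller than most symbols). All 15 lie above the median of all tested genes on either scale (dotted, −0.46; dashed, 0.04), with *mt-Rnr2* lowest and *mt-Cytb* highest.

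Among the complex I genes, *mt-Nd2*, *mt-Nd3*, *mt-Nd4l* and *mt-Nd4* had the higher ratios. Complex I, the NADH dehydrogenase, passes electrons from NADH to ubiquinone and pumps protons, and its mitochondrial subunits form the proton-pumping membrane arm. *mt-Nd2* (ENSMUSG00000064345.1, chrM:3914-4951) was at 7601 TPM in WT against 9606 in *Fabp4*-/-, from 298862 and 434946 read pairs, a log2 ratio of 0.34 (TPM) or 0.91 (normalised counts, 95% exact binomial CI 0.90 to 0.91). Of all tested genes, 93.3% had a lower ratio than *mt-Nd2* by TPM. *mt-Nd3* (ENSMUSG00000064360.1, chrM:9459-9806) was at 1117 and 1370 TPM, from 8340 and 11865 read pairs. Its log2 ratio by TPM was 0.29, and 0.28 with its copy counted in. *mt-Nd4l* (ENSMUSG00000065947.3, chrM:9877-10173) was at 6410 and 7855 TPM, from 33939 and 48363 read pairs, a log2 ratio by TPM of 0.29 that became 0.13 with its copy counted in. *mt-Nd4* (ENSMUSG00000064363.1, chrM:10167-11544), whose first bases overlap the end of *mt-Nd4l* by 7 bases on the same strand, was at 8246 and 9954 TPM, from 454563 and 631504 read pairs. Its log2 ratio by TPM was 0.27 with or without its copy. For the genes alone, the log2 ratios of these 4 by normalised counts lay between 0.84 and 0.91. By TPM between 92.1% and 93.3% of all tested genes had a lower ratio than these genes alone did. With its copy counted in, *mt-Nd4l* was at 0.72 by normalised counts, so its place in this group rests in part on how reads were divided. The other complex I genes stood closer to 0 by TPM.

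*mt-Nd1* (ENSMUSG00000064341.1, chrM:2751-3707), the first coding gene after the ribosomal RNAs, was at 12006 TPM in WT against 11817 in *Fabp4*-/-, from 426834 and 483960 read pairs. Its log2 ratio was −0.02 by TPM and 0.54 by normalised counts (0.54 to 0.55), so its sign turns with the scale. *mt-Nd5* (ENSMUSG00000064367.1, chrM:11742-13565) was at 2676 and 2855 TPM, from 203005 and 249131 read pairs, a log2 ratio of 0.09 (TPM) or 0.66 (normalised counts). *mt-Nd6* (ENSMUSG00000064368.1, chrM:13552-14070) was at 1116 and 1036 TPM, from 16985 and 18206 read pairs, a log2 ratio of −0.11 (TPM) or 0.46 (normalised counts, 0.43 to 0.49). It was the lowest ratio among the coding genes on both scales. *mt-Nd6* overlaps *mt-Nd5* by 14 bases on the opposite strand, and the sources used here do not give the strand setting of the counting. The read pairs per kb of *mt-Nd6* over those of *mt-Nd5* were 0.294 in WT and 0.257 in *Fabp4*-/-.

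*mt-Cytb* (ENSMUSG00000064370.1, chrM:14145-15288) had the highest ratio of all members. It encodes cytochrome b, the only subunit of complex III made in the mitochondrion, where electrons pass from ubiquinol to cytochrome c. It was at 8928 TPM in WT against 12071 in *Fabp4*-/-, from 395011 and 614936 read pairs. The log2 ratio was 0.44 by TPM, with 94.4% of all tested genes lower, and 1.002 by normalised counts, where the exact binomial 95% CI was 0.997 to 1.008 and so spanned 2-fold. It was the member counted above as at least 2-fold higher by normalised counts, at 2.003-fold, while *mt-Nd2*, the next, was at 1.873-fold. Set against *mt-Nd1*, which also has no copy at 1 TPM or more, *mt-Cytb* had 0.774 times its read pairs per kb in WT and 1.06 times in *Fabp4*-/-.

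The cytochrome c oxidase genes *mt-Co1*, *mt-Co2* and *mt-Co3* differed little by TPM. Complex IV, which they form with nuclear subunits, hands electrons to oxygen. *mt-Co1* (ENSMUSG00000064351.1, chrM:5328-6872) was at 20495 and 20052 TPM, from 1288878 and 1451057 read pairs, a log2 ratio of −0.03 (TPM) or 0.53 (normalised counts). With its copies counted in, normalised counts gave 0.57 and TPM 0.11. *Gm29216* is 492 bases long against 1545 for *mt-Co1*, so its pairs weigh more in a sum of TPM than in a sum of counts. *mt-Co2* (ENSMUSG00000064354.1, chrM:7013-7696) was at 7311 TPM in WT against 7166 in *Fabp4*-/-, from 167143 and 188969 read pairs. *mt-Co3* (ENSMUSG00000064358.1, chrM:8607-9390) was at 4430 and 4419 TPM, from 121863 and 140125 read pairs. Their log2 ratios by TPM were −0.03 and −0.0035, and 0.03 and −0.03 with copies. By normalised counts the log2 ratios of the 3 genes lay between 0.53 and 0.57. By TPM all 3 thus stayed within 0.11 of 0 with or without copies.

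The ATP synthase genes *mt-Atp8* and *mt-Atp6* had log2 ratios of −0.04 and −0.05 by TPM, while normalised counts gave 0.55 and 0.52. Their complex makes ATP from the proton gradient, and both are read from a shared message whose overlap is the capital stretch printed above. *mt-Atp6* (ENSMUSG00000064357.1, chrM:7927-8607) was at 4183 TPM in WT against 4038 in *Fabp4*-/-, from 95044 and 105837 read pairs. With *Gm10925* counted in, its log2 ratio was 0.09 by TPM and 0.66 by normalised counts, so the sign by TPM rests on how reads were divided. For *mt-Atp8* (ENSMUSG00000064356.3, chrM:7766-7969), at 67230 and 76594 read pairs, no annotated copy reached 1 TPM, but *Gm10925* shares its last 43 bases, and copies outside annotated transcripts were not looked for.

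The ribosomal RNA genes had the lowest ratios of the members by TPM and by normalised counts. *mt-Rnr1* (ENSMUSG00000064337.1, chrM:70-1024), the RNA of the small mitochondrial ribosomal subunit, was at 5319 TPM in WT against 4744 in *Fabp4*-/-, from 188608 and 193762 read pairs. Its log2 ratio was −0.17 by TPM and 0.40 by normalised counts (0.39 to 0.41). *mt-Rnr2* (ENSMUSG00000064339.1, chrM:1094-2675), the RNA of the large subunit, was at 4404 and 3374 TPM, from 284560 and 250822 read pairs. Its log2 ratio was −0.38 by TPM and 0.18 by normalised counts (0.17 to 0.19), and 57.2% of all tested genes had a lower ratio by TPM. Of the mitochondrial read pairs, the ribosomal RNAs held 11.7% in WT and 9.07% in *Fabp4*-/-, while the ratio of *mt-Rnr1* to *mt-Rnr2* went from 0.663 to 0.773.

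PolyA RNA was sequenced, and ribosomal RNAs of mitochondria carry at most short A tails, so RNAs without a polyA tail were listed for comparison. Of 10 such RNAs, made up of 7SK, signal recognition particle, RNase, telomerase, Y and vault RNAs, 9 were measured. By TPM 4 of the 9 were past 2-fold higher and 2 past 2-fold lower, where 2.18% and 14.2% of all tested genes were. Their summed level was 275 TPM in WT against 221 in *Fabp4*-/-. *Rn7sk*, which restrains transcription elongation, was at 88.1 and 18.0 TPM, and *Rmrp*, the RNA of an RNase complex, at 9.66 and 4.45 TPM. The list's highest ratios, those of the vault RNA *Vaultrc5* and the Y RNA *Rny1*, rested on 0 read pairs in WT and 6 and 2 in *Fabp4*-/-. The others past 2-fold higher were *Rn7s2* and *Terc*, outside the rule for named genes. *Rn7s2* and *Rn7s1*, both RNAs of the signal recognition particle, are close to identical and shared their reads by estimate, with 159.5 TPM in WT and 150 in *Fabp4*-/- together. *Terc*, the telomerase RNA, had 8 read pairs in WT and 76 in *Fabp4*-/-. Of 4 RNAs that stay in the nucleus, *Malat1* was at 2106 and 2708 TPM and *Meg3*, the only one past 2-fold, at 286 and 111 TPM. The median log2 ratio of the 9 was −0.80 by TPM and −0.25 by normalised counts, and it was 0.45 by TPM with a minimum of 5 TPM. The part of RNAs without a tail in the ribosomal RNA values was not tested.

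For the messenger RNAs the tail is also part of the coding sequence in 3 cases, since *mt-Co3*, *mt-Nd4* and *mt-Cytb* end with 1 base after the last full codon, and adding A residues completes the stop codon. The last 30 bases of each are shown with that base in capitals, beside the end of *mt-Co2* with its full stop codon in capitals (chrM:9361-9390, chrM:11515-11544, chrM:15259-15288 and chrM:7667-7696):
mt-Co3: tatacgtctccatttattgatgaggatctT
mt-Nd4: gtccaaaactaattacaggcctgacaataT
mt-Cytb: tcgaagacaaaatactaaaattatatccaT
mt-Co2: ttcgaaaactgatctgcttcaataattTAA

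The log2 ratios by TPM of the 3 genes without a full stop codon were far apart, at −0.0035, 0.27 and 0.44.

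The 22 transfer RNA genes were all listed at 0 TPM in both libraries. They are 59 to 75 bases long, less than the 192.2 and 190.4 bases that the TPM values take off, so a level of 0 there says nothing of the RNA itself. Read pairs were listed for 3 of them. *mt-Ts1*, a serine transfer RNA, had 4 in WT and 2 in *Fabp4*-/-. *mt-Tm*, for methionine, had 1 and 1, and *mt-Tn*, for asparagine, 1 and 0. The other 19 (*mt-Tf*, *mt-Tv*, *mt-Tl1*, *mt-Ti*, *mt-Tq*, *mt-Tw*, *mt-Ta*, *mt-Tc*, *mt-Ty*, *mt-Td*, *mt-Tk*, *mt-Tg*, *mt-Tr*, *mt-Th*, *mt-Ts2*, *mt-Tl2*, *mt-Te*, *mt-Tt* and *mt-Tp*) had 0 in both, which allows up to 3 read pairs each by counting error. No difference between the libraries was detectable for these genes at this depth.

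The share of each gene in the mitochondrial total is free of library scaling, and by this measure some complex I genes and *mt-Cytb* took more of the total in *Fabp4*-/- and the ribosomal RNAs less. *mt-Cytb* stood at 6.85% of mitochondrial TPM in WT and 8.92% in *Fabp4*-/-. *mt-Nd2* stood at 5.83% and 7.10%, and *mt-Nd4* at 6.33% and 7.35%. *mt-Rnr2* stood at 3.38% and 2.49%, and *mt-Co1* at 15.7% and 14.8%. These shares are of a total in which *mt-Atp8*, with its short implied length, held 27.7% and 25.9%. By normalised counts *mt-Atp8* held 1.66% and 1.56%, *mt-Co1* 31.8% and 29.6%, *mt-Rnr2* 7.03% and 5.12%, and *mt-Cytb* 9.75% and 12.6%. The log2 ratios of the shares ran from −0.44 for *mt-Rnr2* to 0.38 for *mt-Cytb*. For 13 of the 15 genes the sign of this ratio was kept by normalised counts, over the coding genes alone and with copies counted in. The exceptions were *mt-Co1* and *mt-Atp6*. *mt-Co1* was at −0.09 alone, and with copies at 0.04 by TPM and −0.07 by normalised counts, so its sign turned only where the TPM of its partial copy was added. *mt-Atp6* was at −0.11 alone and at 0.01 with its copy on both scales.

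By complex, the summed TPM of the 7 complex I genes was 39172 in WT and 44493 in *Fabp4*-/-. With copies counted in it was 48374 and 54375. The 3 complex IV genes summed to 32235 and 31636 TPM alone, and to 67585 and 69870 TPM with copies. The 2 complex V genes summed to 40269 and 39029 TPM alone, and to 57062 and 57267 TPM with copies. With copies the sums of complexes IV and V were thus slightly higher in *Fabp4*-/-, and without them slightly lower. The complex IV sum with copies held 5721 and 8255 TPM of the partial copy *Gm29216*. The complex V genes alone made up 30.9% and 28.8% of mitochondrial TPM but 4.01% and 3.72% of mitochondrial read pairs, most of that TPM being *mt-Atp8*. The median log2 ratio by TPM was 0.27 for the mitochondrial genes of complex I, −0.03 for those of complex IV and −0.05 for those of complex V, and with copies it was 0.13, 0.03 and 0.02. Nuclear genes of the same complexes gave medians of 0.05 (36 of 37 listed measured), 0.06 (11 measured) and 0.10 (17 measured), and the 9 of complex III a median of 0.10, beside 0.44 for *mt-Cytb*. None of the 73 measured nuclear subunits was at least 2-fold higher or lower, where 2.18% and 14.2% of all tested genes were by TPM and 5.76% and 7.6% by normalised counts. These subunits had a median of 0.06 by TPM (0.63 by normalised counts), and all 73 lay above the median of all tested genes by TPM, as the 13 mitochondrial coding genes did. The summed TPM of the coding genes was 7.36 times that of the nuclear subunits in WT and 7.31 times in *Fabp4*-/-, and 9.52 and 9.99 times in read pairs. With copies these became 11.1 times in both libraries by TPM, and 12.9 and 13.5 times in read pairs.

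**Figure D4:**
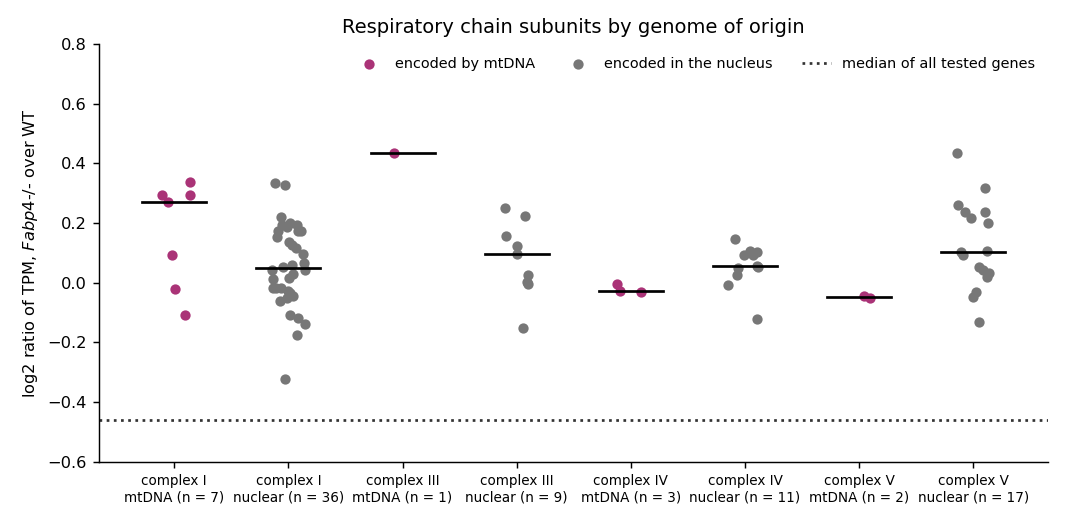
Log2 ratio of TPM, *Fabp4*-/- over WT, for respiratory chain subunits encoded by mitochondrial DNA and in the nucleus, by complex; each point is a gene, the bar is the median and the dotted line the median of all tested genes (−0.46). The 7 mitochondrial complex I genes range from −0.11 to 0.34, beside −0.32 to 0.33 for the 36 nuclear ones, and *mt-Cytb* at 0.44 lies above the nuclear complex III genes.

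Among the nuclear subunits, *Atp5g1*, a gene for the rotor ring of the ATP synthase, was at 183 TPM in WT against 248 in *Fabp4*-/- (log2 ratio 0.44), the highest. *Ndufs1*, an electron-carrying subunit of complex I, was at 36.2 and 28.8 TPM (−0.32), the lowest. *Ndufb2*, of the membrane arm of complex I, was at 104 and 131 TPM (0.33), and *Uqcrb* of complex III at 319 and 380 TPM (0.25). *Cox4i1*, of complex IV, was at 563 and 517 TPM (−0.12). Of complex II, which has no mitochondrial gene, 4 of 4 subunits were measured with a median of 0.03, between −0.25 for *Sdha* and 0.20 for *Sdhb*.

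Nuclear genes that serve the mitochondrial genome had lower median ratios than the subunit genes. Of 20 genes for transcription and replication of mitochondrial DNA, 0 were at least 2-fold higher or lower (2.18% and 14.2% of all tested genes by TPM), and the median was −0.41 by TPM and 0.15 by normalised counts, beside −0.46 and 0.04 over all tested genes. *Peo1*, the mitochondrial DNA helicase, was at 8.47 TPM in WT against 4.0 in *Fabp4*-/- (−0.995), and *Tfb2m*, a transcription initiation factor, at 15.3 and 8.95 TPM. *Polrmt*, the mitochondrial RNA polymerase, and *Tfam*, which packages the DNA, were added for their role after the values were seen. They were at 21.8 and 16.1 TPM and at 13.5 and 9.97 TPM. Their log2 ratios by TPM, −0.423 and −0.415, lay above the median of all tested genes. By normalised counts the log2 ratios were 0.04 for *Polrmt*, 0.35 for *Tfam*, −0.01 for *Tfb2m* and −0.52 for *Peo1*. The highest ratios of the list by TPM were those of *Polg2*, at 3.11 and 3.13 TPM, and *Top1mt*, at 8.59 and 8.47 TPM.

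Of 33 listed genes for mitochondrial RNA processing and stability, 31 were measured, with 0 at least 2-fold different, against the same 2.18% and 14.2%, and medians of −0.33 (TPM) and 0.17 (normalised counts). *Hsd17b10*, a subunit of the enzyme that cuts transfer RNAs from the precursor at their 5′ end, was at 93.8 and 109 TPM. *Gtpbp3*, which modifies mitochondrial transfer RNAs, was at 8.08 and 4.07 TPM (−0.91 by TPM, −0.42 by normalised counts). Of 22 measured enzymes and partners that charge mitochondrial transfer RNAs, 1 was at least 2-fold lower by TPM and 0 by normalised counts, where 14.2% and 7.6% of all tested genes were, and the median was −0.31 by TPM. *Lars2*, the leucyl-tRNA synthetase, was at 23.9 TPM in WT against 9.16 in *Fabp4*-/-. The 12 measured regulators of mitochondrial biogenesis had medians of −0.56 (TPM) and −0.14 (normalised counts). *Pprc1*, a coactivator of this group, was at 28.5 and 11.2 TPM, the only one of the 12 at least 2-fold lower by TPM (14.2% of all tested genes), and it missed 2-fold by normalised counts.

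Markers of hepatocytes were present in both libraries, with a sum over 12 genes of 150514 TPM in WT against 195080 in *Fabp4*-/-. Most of that sum was *Alb*, at 49157 and 65261 TPM, and *Trf*, at 50638 and 62991 TPM. All 12 lay above the median of all tested genes by TPM, but they went both ways. Their log2 ratios by TPM ran from −0.35 for *Hnf4a* to 1.89 for *Cps1*, with *Apob* at −0.28 and *Apoh* at −0.14. In *Fabp4*-/-, 7 of 8 measured T and NK cell markers and 5 of 6 mast cell markers lay at or below 0.5 times the WT level, as did 14.2% of all tested genes, with sums of 59.5 and 7.25 TPM and of 115 and 2.66 TPM. B and plasma cell markers summed to 277 and 203 TPM, macrophage markers to 104 and 93.2 TPM, neutrophil markers to 45.6 and 59.4 TPM and endothelial markers to 47.4 TPM in both. The macrophage markers went both ways, with log2 ratios by TPM from −0.97 for *Adgre1* to 1.27 for *Marco*. Their median was −0.32 by TPM and 0.24 by normalised counts. Endothelial markers also went both ways, from −0.49 to 0.56 by TPM. Stellate cell and fibroblast markers summed to 310 and 188 TPM. Cholangiocyte markers summed to 480 and 992 TPM, of which *Spp1*, which other cells also make, was 468 and 985, while the median log2 ratio of the 5 was −0.71 and 2 were past 2-fold lower. Blood was present too, with erythroid markers at 3146 and 2291 TPM. Adipocyte markers summed to 1.35 and 1.66 TPM, nearly all of it *Cfd*, while *Lep* was at 0 in both libraries and *Adipoq*, *Plin1* and *Retn* had 1 read pair each in WT and 0 in *Fabp4*-/-. The part of this cell makeup in the mitochondrial values was not tested.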

How the data were processed

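The libraries were made from polyA RNA and sequenced as read pairs. RSEM 1.2.31, STAR 2.5.2 and the mm10 build are named in the submitters' notes. The authors deposited TPM values and normalised counts, a signal in which the expected counts of RSEM were scaled with a single factor for each library. Fold changes and posterior probabilities that the authors also deposited were not used. Dividing by the most frequent value above 0 (0.882 for WT, 1.13 for *Fabp4*-/-) gave estimated read pairs, of which 86.0% and 86.5% were whole to within 0.0001 pairs. The pseudocount was 0.5 and the minimum level 1 TPM. Copies were sought with BLAST+ 2.17.0 among annotated GENCODE M21 transcripts only, where all 47 members and copies had the table's positions. Ratios were computed in Python 3.11.15 (pandas 2.3.3, numpy 2.4.6), intervals with scipy 1.17.1 and plots with matplotlib 3.10.9, after the code had been tested on simulated data. The members and lists were chosen with earlier results of these data known. Beside members and copies, genes named were *Fabp4* and, per list, up to 2 with the highest and 2 with the lowest ratio by TPM. Exceptions, named after their values were seen, were *Polrmt*, *Tfam*, *Rn7s1*, *Rn7s2*, *Terc* and the cell type markers. Alternatives were other scales, pseudocounts, minimums and fold thresholds.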

Additional observations from a re-analysis of the deposited data

How the results depend on the processing

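No paired analysis was possible because WT and *Fabp4*-/- have 1 library each. The transfer RNA genes gave no median under any alternative, since none reached a level above 0 TPM. The log2 ratio of the mitochondrial share, 0.0545 by TPM, was 0.19 by normalised counts, 0.18 with the denominator without the 20 most abundant nuclear genes of either library, 0.074 with nuclear copies, and 0.20 by normalised counts with copies. Alternatives with copies, other than for the ratios of single genes, were chosen after seeing the data. The median of the coding genes, −0.0035 by TPM, was 0.57 by normalised counts, 0.46 with median centring, 0.33 when scaled to the upper quartile, 0.0048 with TPM rescaled without mitochondrial genes and 0.093 with copies. Its distance from the median of the nuclear subunits, −0.062, was −0.069 by normalised counts. The number of coding genes at least 2-fold higher was 1 by normalised counts and 0 under the other alternatives, and the number lower was 0 under each. The tested genes past 2-fold in the higher and the lower direction, 296 and 1928 by TPM, became 781 and 1030 by normalised counts, 625 and 670 with median centring, and 471 and 993 with upper quartile scaling. Raising the minimum to 5 TPM left 1083 lower ones. With a pseudocount of 0.1 the counts were 347 and 2552, and with a pseudocount of 1 they were 257 and 1363. For a threshold of 1.5-fold the counts were 568 and 5318, and at 4-fold 90 and 251. The range of the share ratios within the mitochondrial genome, 0.82, was 0.54 over the 13 coding genes, since the ribosomal RNAs drop out. No value past 2-fold changed sign. For the 15 measured genes counting error was small beside the shift from TPM to normalised counts, though not beside the smallest shifts listed here. The transfer RNA genes rested on 6 read pairs in WT and 3 in *Fabp4*-/-.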

Other observations

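Along the heavy-strand transcript, the log2 ratio by TPM tended to be higher for genes farther from its start. Over the 14 measured heavy-strand genes, Spearman's rho between start position and ratio was 0.65 for genes alone and 0.61 with nuclear copies counted in, given as a description because the genes share precursors and libraries. *mt-Rnr1* and *mt-Rnr2*, nearest the start, were at −0.17 and −0.38, and *mt-Cytb*, the last coding gene, at 0.44. Both ribosomal RNAs are among the 14, and over the heavy-strand coding genes alone the rank correlation is weaker. *mt-Nd2*, among the first coding genes, stood out of this order at 0.34, and the 5 genes from *mt-Co1* to *mt-Co3* lay between −0.05 and −0.0035 alone and between −0.04 and 0.11 with copies.

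The balance of neighbouring genes on a shared message depended on the copies. In read pairs per kb, *mt-Nd4l* over *mt-Nd4* was 0.346 in WT and 0.355 in *Fabp4*-/- for the genes alone, and 0.552 and 0.508 with annotated copies. *mt-Atp8* over *mt-Atp6* was 2.36 and 2.42 for the genes alone, and 0.473 and 0.440 with annotated copies. The direction of both differences turned with the copies. The balances themselves rest on annotated length. By TPM with copies *mt-Atp8* was at 36087 and 34991, above *mt-Atp6* at 20976 and 22276.

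The chromosome 1 copies did not all have the ratio of their mitochondrial gene. *Gm29216* was at 5721 TPM in WT against 8255 in *Fabp4*-/-, a log2 ratio of 0.53 beside −0.03 for *mt-Co1*. *Gm10222* was at 3934 and 3503 TPM, −0.17 beside 0.29 for *mt-Nd4l*. *Gm28437* was at 12902 and 12591 TPM, −0.04 beside −0.0035 for *mt-Co3*. *Gm28438* was at 5205 and 6313 TPM, 0.28 beside 0.29 for *mt-Nd3*.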
